A study of Mus musculus with 19 samples.

Results

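Bmal1, Clock, Npas2, Per1, Per2, Per3, Cry1 and Cry2 form the core feedback loop of the circadian clock, and their expression was measured here in mouse liver. The genes were taken by symbol from a table of estimated counts per gene, in which all 8 were found among 55836 genes. All 8 were also among the 13597 genes that passed the filter on low counts and were tested. The data were 19 bulk RNA sequencing libraries of liver from wild-type male C57BL/6 mice, 1 mouse per library, all under 1 batch label. Mice were 8 weeks old at the start and had free access to food for 8 weeks. The control diet (CD) held 10 kcal% fat, and the MASH diet (MD), named for metabolic dysfunction-associated steatohepatitis, had 2% cholesterol, with 40 kcal% from fat and 20 kcal% from fructose. Polyethylene microplastics (PE), particles with a diameter of 10 to 150 µm, were gavaged at 2 mg per mouse and day, and vehicle (Veh) mice were gavaged with the dilute Tween 20 solution alone. There were 4 livers of CD + Veh and 5 each of CD + PE, MD + Veh and MD + PE.

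BMAL1 pairs with CLOCK, or with its paralog NPAS2, to form a transcription factor that binds E-box sequences and drives the Per and Cry genes. The PER and CRY proteins accumulate, enter the nucleus and repress that same factor, so that the loop turns over about once a day. The nuclear receptors REV-ERB and ROR act on Bmal1 transcription, and in liver the transcripts of Bmal1 and Npas2 peak at times of day far from those of the Per genes.

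Livers were taken once per mouse, and the hour of collection was not given in the sources used here. A difference in level therefore cannot be told apart from a difference in daily phase in any comparison below. The methods state that mice of a group were housed together, so cage and group cannot be told apart either.

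Depth ranged from 10398820 to 15456729 counts per library, and was 10398820 to 12757617 in the PE libraries against 13406037 to 15456729 in the vehicle libraries. Values are counts relative to the library total (CPM), with that total scaled by the trimmed mean of M values (TMM), so that 1 CPM stood for 9.96 to 16.1 counts depending on the library. Library numbers ran from 39 to 47 in vehicle mice and from 48 to 57 in PE mice, so PE, depth and library number cannot be told apart. A division also ran between library numbers 45 and 46: the ribosomal protein pseudogene Rps6-ps4 had 1088 to 1690 counts in each of the 7 libraries up to 45 and 0 in each of the 12 from 46 on. All of CD + Veh and replicates 1 to 3 of MD + Veh lay before it. The summed level of 6 hepatocyte markers was between 52275 and 94980 CPM in every library, with no marker at 0. In bulk tissue, fewer cells of a type and less RNA per cell cannot be told apart.

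The sequences that follow show where 3 DNA motifs of the clock lie near the starts of the Per and Cry genes. The sequences are from the GRCm39 primary assembly, 5′ to 3′ on the strand of the gene, and the capitals mark the motif. All 8 genes were matched to a promoter window of 300 bases, 250 before the start and 50 from it on. The start is that of the annotated canonical transcript in GENCODE M39. For Per3 and Cry2 it is the 5′ edge of the gene span given below, and for the other genes it lies inside that span. The E-box is the letters CACGTG, which the BMAL1 dimers bind, and the E′-box is its relative CACGTT. The D-box, TTATGTAA, is bound by DBP, TEF and HLF and by their antagonist NFIL3. Both strands were searched, and a match printed as AACGTG is CACGTT on the other strand.
Per1 E-box, chr11:68989235-68989262, + strand, 22 bases before the start: ccccttaacgaCACGTGggccctcaatt
Cry1 E-box, chr10:85020962-85020989, - strand, 29 bases before the start: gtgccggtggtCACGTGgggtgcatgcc
Cry1 E′-box, chr10:85020981-85021008, - strand, 48 bases before the start: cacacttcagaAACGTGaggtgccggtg
Cry2 E′-box, chr2:92264564-92264591, - strand, 106 bases before the start: cacatggtgggAACGTGagggggcggag
Per2 E′-box, chr1:91387025-91387052, - strand, at base 6 from the start: gcgcgcgcggtCACGTTttccactatgt
Per2 D-box, chr1:91387153-91387182, - strand, 125 bases before the start: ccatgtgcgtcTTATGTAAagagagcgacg
Per3 D-box, chr4:151129309-151129338, - strand, 187 bases before the start: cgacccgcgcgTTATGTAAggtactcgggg
Per3 D-box, chr4:151129262-151129291, - strand, 140 bases before the start: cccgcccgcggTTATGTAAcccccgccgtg

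The E-box was in the windows of 2 of the 8 genes and in 7.82% of 21757 promoter windows. The E′-box was in 3 of the 8 and in 5.0% of all windows, and the D-box in 2 of the 8 and in 0.933%. The core of the ROR element, TAGGTCA, and the cAMP response element, TGACGTCA, were in none of the 8, against 2.49% and 2.45% of all windows. The motifs printed did not overlap each other. Bmal1, Clock and Npas2 had no match to any of these letters within the window. Sequence outside the windows, including that at other annotated starts, was not searched. The lack of a match here therefore does not mean that a promoter lacks the element. A match is a description of sequence and not a site of binding.

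Bmal1 (chr7:112806152-112914735, + strand, GRCm39, GENCODE M39) encodes the subunit shared by both activator dimers. Its levels in replicates 1 to 4 of CD + Veh were 2.61, 2.65, 4.76 and 2.22 CPM, and in replicates 1 to 5 of CD + PE they were 6.14, 20.9, 7.15, 6.33 and 5.73 CPM. In MD + Veh the 5 livers had 13.9, 19.5, 15.5, 10.99 and 7.96 CPM, and in MD + PE 18.8, 10.6, 9.22, 8.45 and 9.34 CPM. Each CD + Veh liver was below each liver of the other 3 groups, whose ranges overlapped, and replicate 2 of CD + PE was the highest of all 19. Bmal1 was 3.02-fold higher in CD + PE than in CD + Veh, or by 1.60 in log2 (SE 0.40, adjusted p = 0.0308). It was 4.44-fold higher in MD + Veh, at 2.15 (SE 0.40, adjusted p = 0.00120), and 3.67-fold higher in MD + PE, at 1.88 (SE 0.40, adjusted p = 0.00231).

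Clock (chr5:76342860-76452846, - strand) encodes the partner of BMAL1 with acetyltransferase activity. It was measured at 26.9, 27.5, 38.1 and 21.1 CPM in CD + Veh and at 47.9, 52.2, 44.3, 38.6 and 36.8 CPM in CD + PE. The MD + Veh livers had 40.5, 44.5, 42.6, 43.2 and 38.1 CPM and the MD + PE livers 51.03, 49.7, 51.9, 41.1 and 39.8 CPM. Replicate 3 of CD + Veh reached the low end of CD + PE and of MD + Veh, and the other 3 CD + Veh livers lay below all 15 livers of those groups and of MD + PE. Clock rose by 0.63 in log2 in CD + PE (SE 0.14, adjusted p = 0.0152), 0.56 in MD + Veh (SE 0.14, adjusted p = 0.0106) and 0.72 in MD + PE (SE 0.14, adjusted p = 0.00107). Clock shares 2047 exon bases with Tmem165 on the opposite strand, and the libraries were stranded.

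Npas2 (chr1:39232705-39402323, + strand) encodes the paralog that can replace CLOCK in the dimer. In CD + Veh it had few counts, with 6, 9, 2 and 1 counts, or 0.373, 0.645, 0.134 and 0.0674 CPM. In CD + PE it had 0.830, 5.53, 2.12, 0.603 and 0.692 CPM, with replicate 2 again the highest, and 1 of the 5 livers within the CD + Veh range. Npas2 was at 2.73, 7.99, 4.57, 2.09 and 1.39 CPM in MD + Veh and at 4.88, 2.27, 1.57, 2.197 and 1.53 CPM in MD + PE. All 10 MD livers were above all 4 CD + Veh livers. The log2 fold change against CD + Veh was 3.60 in MD + Veh (SE 0.76, adjusted p = 0.00344) and 3.00 in MD + PE (SE 0.77, adjusted p = 0.00914). In CD + PE it was 2.66 (SE 0.78), and Npas2 did not pass there by edgeR (adjusted p = 0.0639) but did by DESeq2 (2.70, adjusted p = 0.00521). The size of each of these folds rests on the few counts of CD + Veh. Npas2 passed the filter on low counts with all 19 libraries. With CD + PE and CD + Veh alone, 7 of the 8 genes passed it, and Npas2 did not. Its test in CD + PE against CD + Veh therefore rests on a filter that the MD livers let it pass.

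**Figure D1:**
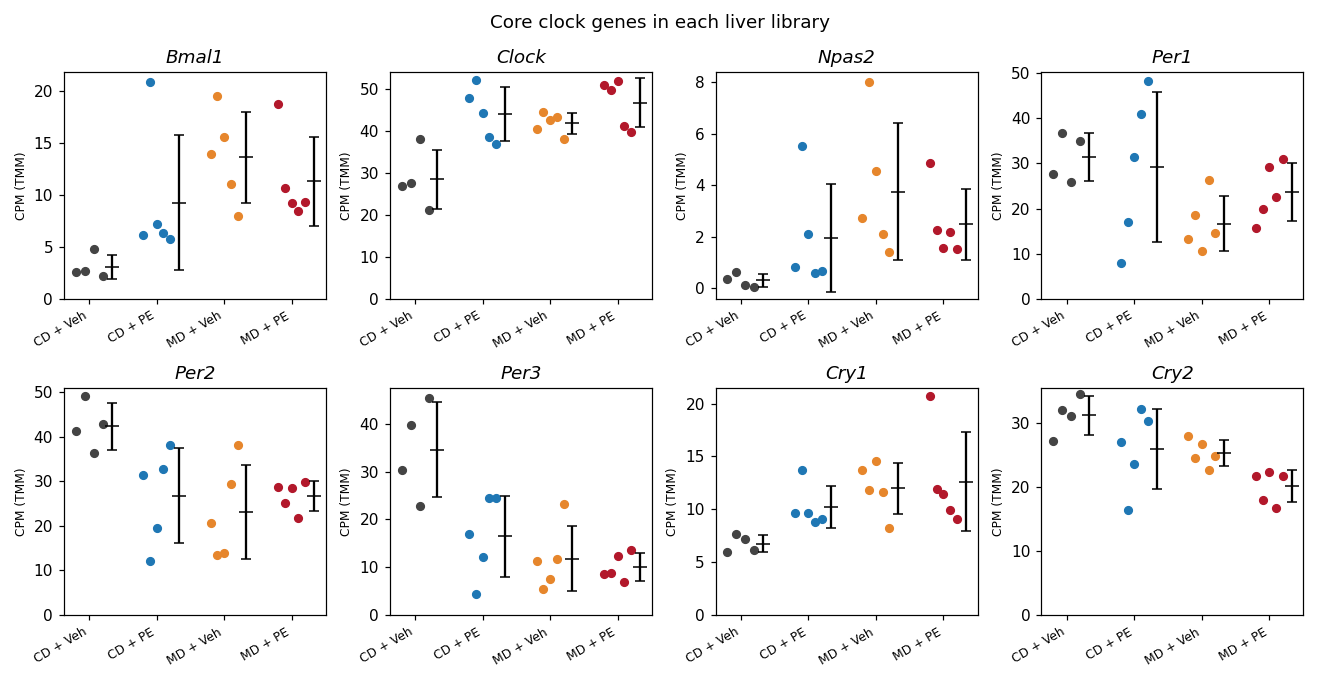
Level of each core clock gene in the 19 livers, in TMM-scaled CPM on a linear axis that differs between panels, with 1 point per liver and the mean ± SD of each group. The CD + Veh livers are the lowest for Bmal1, at 2.22 to 4.76 CPM, and the highest on average for Per2 and Per3, and 1 CD + PE liver stands at 20.9 CPM of Bmal1. The Npas2 axis starts below 0 because the mean minus 1 SD of CD + PE does.

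Per1 (chr11:68986035-69002300, + strand) encodes a repressor whose gene also responds quickly to hormones and stress. Its levels were 27.7, 36.7, 25.9 and 35.1 CPM in CD + Veh. In CD + PE they spread widely, at 7.97, 16.9, 31.4, 40.97 and 48.3 CPM, and rose with each replicate number, which they did not in the other groups. In MD + Veh Per1 was at 13.3, 18.6, 10.501, 26.3 and 14.6 CPM, and in MD + PE at 15.6, 19.8, 29.3, 22.6 and 31.0 CPM. The lowest and the highest Per1 level of all 19 livers were both in CD + PE, whose coefficient of variation was 57.2% against 17.1% in CD + Veh. Per1 did not pass in any comparison. The log2 difference from CD + Veh was -0.11 in CD + PE (adjusted p = 0.926), -0.91 in MD + Veh (adjusted p = 0.102) and -0.41 in MD + PE (adjusted p = 0.463).

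Per2 (chr1:91343700-91387069, - strand) encodes the repressor that scaffolds the PER and CRY complex. It stood at 41.2, 49.1, 36.3 and 42.8 CPM in CD + Veh and at 31.3, 12.2, 19.4, 32.7 and 38.1 CPM in CD + PE. The values were 20.6, 13.4, 13.9, 29.5 and 38.2 CPM in MD + Veh and 28.7, 25.0, 28.5, 21.7 and 29.8 CPM in MD + PE. All 5 MD + PE livers were below the CD + Veh range, and 1 liver each of CD + PE and MD + Veh lay within it. Per2 was lower in MD + Veh with a log2 difference of -0.88 (SE 0.29, adjusted p = 0.0488), a call close to the limit. It did not pass in CD + PE (-0.66, SE 0.29, adjusted p = 0.233) or in MD + PE (-0.66, SE 0.29, adjusted p = 0.115).

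Per3 (chr4:151081373-151129140, - strand), whose protein is a weaker repressor than the other PER proteins, differed most between groups within this family. The CD + Veh livers had 30.4, 39.8, 22.9 and 45.5 CPM and the CD + PE livers 16.9, 4.47, 12.2, 24.4 and 24.5 CPM. Per3 was at 11.3, 5.39, 7.50, 11.6 and 23.2 CPM in MD + Veh and at 8.53, 8.84, 12.4, 6.80 and 13.6 CPM in MD + PE. The lowest level of all 19 livers, 4.47 CPM, was in the CD + PE replicate that had the highest Bmal1. Per3 was 2.95-fold lower in MD + Veh than in CD + Veh (in log2 -1.56, SE 0.40, adjusted p = 0.0121) and 3.46-fold lower in MD + PE (-1.79, SE 0.40, adjusted p = 0.00360). In CD + PE the log2 difference was -1.07 (SE 0.39) and did not pass (adjusted p = 0.143).

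Cry1 (chr10:84967560-85021252, - strand) encodes a strong repressor of the BMAL1 dimers that peaks late in the cycle. Its levels were 5.97, 7.66, 7.18 and 6.13 CPM in CD + Veh and 9.63, 13.7, 9.62, 8.84 and 9.09 CPM in CD + PE. Cry1 was at 13.7, 11.8, 14.5, 11.6 and 8.19 CPM in MD + Veh and at 20.7, 11.9, 11.5, 9.96 and 9.07 CPM in MD + PE. Every CD + Veh liver was below every other liver. Unlike the Per genes, which were lower or did not pass, Cry1 rose, by 0.83 in log2 in MD + Veh (SE 0.22, adjusted p = 0.0139) and 0.91 in MD + PE (SE 0.22, adjusted p = 0.00554). The ranges of CD + PE and CD + Veh did not overlap either, yet Cry1 did not pass there (0.60, SE 0.22, adjusted p = 0.140).

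Cry2 (chr2:92233894-92264474, - strand), the second cryptochrome repressor, had a coefficient of variation of 8.08% to 24.0% within groups. It was at 27.2, 32.1, 31.1 and 34.6 CPM in CD + Veh and at 27.1, 16.5, 23.7, 32.2 and 30.4 CPM in CD + PE. Cry2 was at 27.95, 24.6, 26.8, 22.7 and 24.9 CPM in MD + Veh and at 21.7, 18.02, 22.3, 16.8 and 21.8 CPM in MD + PE. The 5 MD + PE livers were below all CD + Veh and all MD + Veh livers. Against CD + Veh, Cry2 fell in MD + PE by 0.64 on the log2 scale (SE 0.14, adjusted p = 0.00367), and its difference was -0.30 in MD + Veh (adjusted p = 0.171) and -0.27 in CD + PE (adjusted p = 0.353).

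Levels of different genes were compared per kilobase of the annotated canonical transcript. In CD + Veh, Cry2 (7.56 ± 0.740 CPM per kb, SD, n = 4) and Per2 (7.26 ± 0.903) were the highest, followed by Per3 (5.75 ± 1.66) and Per1 (4.69 ± 0.799). Clock (2.87 ± 0.713) and Cry1 (2.21 ± 0.269) came next, and Bmal1 (0.718 ± 0.270) and Npas2 (0.0709 ± 0.0609) were the lowest. Neighbours in this order overlapped from Cry2 down to Per1 and again between Clock and Cry1, while Per1 and Clock, Cry1 and Bmal1, and Bmal1 and Npas2 did not. In MD + PE the range of the means was narrower, from 4.87 ± 0.611 CPM per kb for Cry2 (SD, n = 5) to 0.578 ± 0.321 for Npas2, and all neighbours overlapped. Per3 ranked 3 of 8 in CD + Veh and 7 of 8 in MD + PE, below Bmal1, which was at 2.64 ± 0.999 CPM per kb there against 1.67 ± 0.477 for Per3.

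The comparison of MD + Veh with CD + Veh addressed the diet alone. It called 6 of the 8 genes at an adjusted p below 0.05 and a log2 fold change of at least 0.38 in size, against 10.4% of all genes tested. Of these, 4 were higher (Bmal1, Clock, Npas2 and Cry1; 4.74% of all genes) and 2 were lower (Per2 and Per3; 5.63%). The ranges did not overlap for 3 of the 8, Bmal1, Npas2 and Cry1, against 16.2% of all genes. The median size of the log2 fold change was 0.90 over the 8 genes and 0.21 over all genes. Within the 7 libraries up to number 45, chosen after the data had been seen, 7 of the 8 were called in the same directions, with Per1 added at -1.14 (adjusted p = 0.00784), against 13.7% of all genes in that fit. Bmal1, Clock, Npas2, Per3 and Cry1 were called in each of 19 fits that left out 1 library. Per2 was called in 4 of the 19, those without replicate 4 or 5 of MD + Veh or replicate 2 or 5 of CD + PE, and its adjusted p rose to 0.117 without replicate 2 of CD + Veh. Per1 was called (adjusted p = 0.0359) without replicate 1 of CD + PE.

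Markers of other tissues moved with the diet or within it. The hepatocyte sum was 71798 to 88791 CPM in CD + Veh and 52275 to 66661 CPM in MD + Veh, without overlap. The summed level of 6 intestinal epithelium markers was 52.4 to 84.7 CPM in CD + Veh and 116 to 131 CPM in MD + Veh, with 1 to 3 of the 6 at 0 in each of these livers, Cdx2 in all of them, and Fabp2, which liver also expresses, as the main part of the sum. The sum of 8 skeletal muscle genes was 1.06 to 37.7 CPM in CD + Veh, 1.48 to 422 in CD + PE, 2.63 to 3078 in MD + Veh and 1.17 to 2.76 in MD + PE, with none of the 8 at 0 throughout a group. The highest value was in replicate 1 of MD + Veh, and without it Bmal1, Clock, Npas2, Per3 and Cry1 were called. The part of these markers in the clock gene values was not tested.

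PE on the control diet was addressed by CD + PE against CD + Veh, the same 4 control livers as above. Bmal1 and Clock were called, so that 2 of the 8 genes passed against 2.92% of all genes, both of them higher (1.22% of all genes), and 0 were lower (1.7%). Without overlap were 2 of the 8, Bmal1 and Cry1, against 7.83% of all genes. At an unadjusted p below 0.05 there were 6 of the 8 genes, against 17.5% of all genes, and DESeq2 called 3, against 4.2%. The log2 differences ran from 2.66 for Npas2 to -1.07 for Per3.

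The calls in CD + PE depended on single livers. Bmal1 was not called without replicate 1, 2 or 4 of CD + Veh (adjusted p = 0.0960, 0.0827 and 0.102) or without replicate 2 of CD + PE, where its log2 fold change was 1.05 (adjusted p = 0.0615). Clock was not called without replicate 1 or 4 of CD + Veh (adjusted p = 0.0506 and 0.0556), and Npas2 was called without replicate 4 of CD + PE (2.91, adjusted p = 0.0480). All CD + PE libraries lay after the division of library numbers and all CD + Veh libraries before it. With the division as a covariate, which rests on the MD + Veh livers of both sides, 0 of the 8 were called, and Bmal1 was at 2.38 (adjusted p = 0.0966) and Clock at 0.70 (adjusted p = 0.231).

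Replicate 2 of CD + PE stood apart within its group for most of the loop. It had the highest Bmal1, Clock, Npas2 and Cry1 of the 5 livers and the lowest Per2, Per3 and Cry2, and its Per1, at 16.9 CPM, was the next to lowest. The same liver had a summed level of 178 CPM for 4 Kupffer cell and leukocyte markers, against 40.7 to 52.02 CPM in the other 4. Its 2 red blood cell markers summed to 288 CPM, against 29.6 to 50.2 CPM, and its 6 hepatocyte markers to 66701 CPM, the lowest of the group. No marker of these 3 lists was at 0 in it. Their part in its clock gene levels was not tested.

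**Figure D2:**
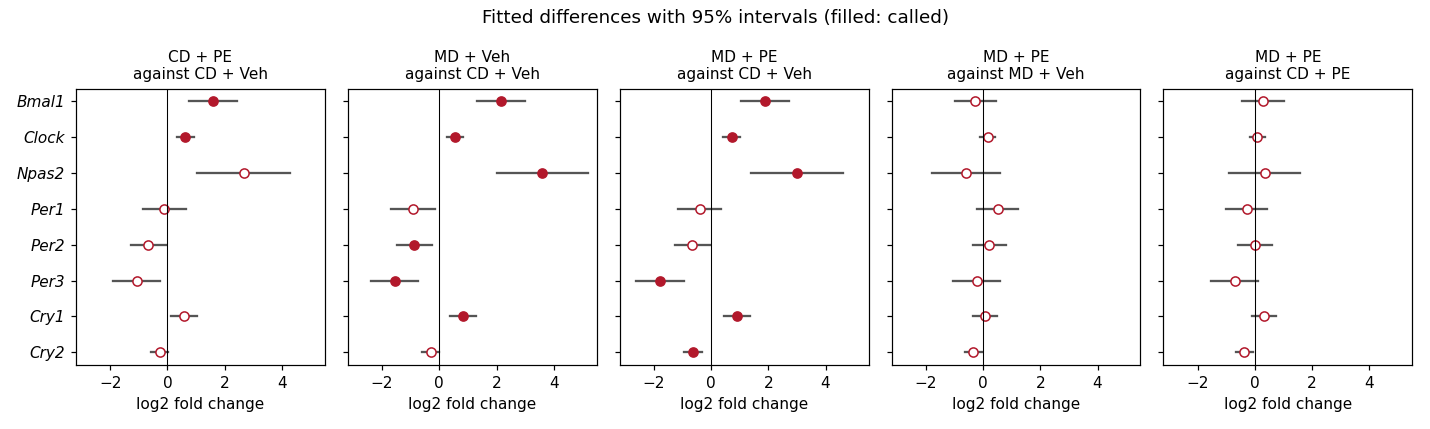
Log2 fold change of the 8 genes in each comparison, with 95% confidence intervals of the edgeR fit and filled symbols for called genes. Bmal1, Clock, Npas2 and Cry1 lie above 0 and Per3 lies below 0 in all 3 comparisons with CD + Veh, and no symbol is filled for MD + PE against MD + Veh.

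MD + PE against CD + Veh, again with the same 4 control livers, gave the combined exposure. It called 6 of the 8 genes, against 14.6% of all genes, with 4 higher (Bmal1, Clock, Npas2 and Cry1; 6.02%) and 2 lower (Per3 and Cry2; 8.55%). The ranges did not overlap for 7 of the 8, all but Per1, against 18.8% of all genes. The 6 genes were called in each of the 19 fits that left out 1 library. Among these was the fit without replicate 2 of MD + PE, in which the intestinal markers summed to 238 CPM, against 113 to 130 CPM in the other 4, and none of the 6, Cdx2 included, was at 0. The 5 intestinal sums of MD + PE were thus all above the 52.4 to 84.7 CPM of CD + Veh, and the hepatocyte sums, at 52696 to 69752 CPM, were all below those of CD + Veh. The part of these markers was not tested. With the division of library numbers as a covariate Clock (0.78, adjusted p = 0.0533) and Cry2 (-0.48, adjusted p = 0.245) were no longer called, and Per2 was (-1.75, adjusted p = 0.0104).

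Adding PE to the MASH diet was addressed by MD + PE against MD + Veh. None of the 8 genes was called by edgeR or DESeq2 (0 of 8, against 1.08% of all genes by edgeR and 2.29% by DESeq2), and 1, Cry2, had an unadjusted p below 0.05, as did 15.7% of all genes. Cry2 was lower in MD + PE by 0.34 on the log2 scale (95% interval -0.62 to -0.05, adjusted p = 0.233), without overlap between the groups, which 3.57% of all genes showed. For Bmal1 the difference was -0.27 with an interval of -0.98 to 0.44, for Npas2 -0.60 (-1.80 to 0.60), for Clock 0.16 (-0.11 to 0.43) and for Cry1 0.07 (-0.34 to 0.49). Per1, Per2 and Per3 differed by 0.51 (-0.22 to 1.24), 0.21 (-0.37 to 0.80) and -0.23 (-1.05 to 0.59). The intervals of all 8 genes thus include changes larger in size than 0.38, the minimum for a call. None of the genes is therefore shown to be alike in MD + PE and MD + Veh. Bmal1, at 0.25, Npas2, at 0.52, and Per2, at -0.34, had the opposite sign with the division of library numbers as a covariate.

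The diet effect in PE mice was addressed by MD + PE against CD + PE. It called 0 of the 8 genes by edgeR and by DESeq2, against 4.61% of all genes by edgeR and 5.88% by DESeq2, and 0 of the 8 had ranges without overlap, against 6.18%. Cry2 was the 1 gene of the 8 with an unadjusted p below 0.05, which 21.7% of all genes had, at a log2 difference of -0.37 (SE 0.14, adjusted p = 0.119). Without replicate 2 of CD + PE, Cry2 was at -0.49 and was called (adjusted p = 0.00608). Per3 differed by -0.72 (95% interval -1.54 to 0.11) and Bmal1 by 0.28 (-0.44 to 1.01). The Bmal1 difference was 0.83 without replicate 2 of CD + PE (adjusted p = 0.0620) and 0.02 without replicate 1 of MD + PE.

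Whether PE acted differently on the 2 diets was tested as the interaction, which is the PE difference on the MASH diet minus that on the control diet. By edgeR 0 of the 8 genes were called, against 0.00735% of all genes, which was 1 gene. At an unadjusted p below 0.05 there were 4 of the 8, against 8.77% of all genes. These were Bmal1 (-1.87, SE 0.52, adjusted p = 0.247), Npas2 (-3.26, SE 0.97, adjusted p = 0.272), Clock (-0.47, SE 0.19, adjusted p = 0.472) and Per2 (0.88, SE 0.40, adjusted p = 0.543). DESeq2 called 1 of the 8, against 0.576% of all genes, namely Bmal1 at -1.86 (adjusted p = 0.0417), with Npas2 at -3.28 (adjusted p = 0.0533).

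**Figure D3:**
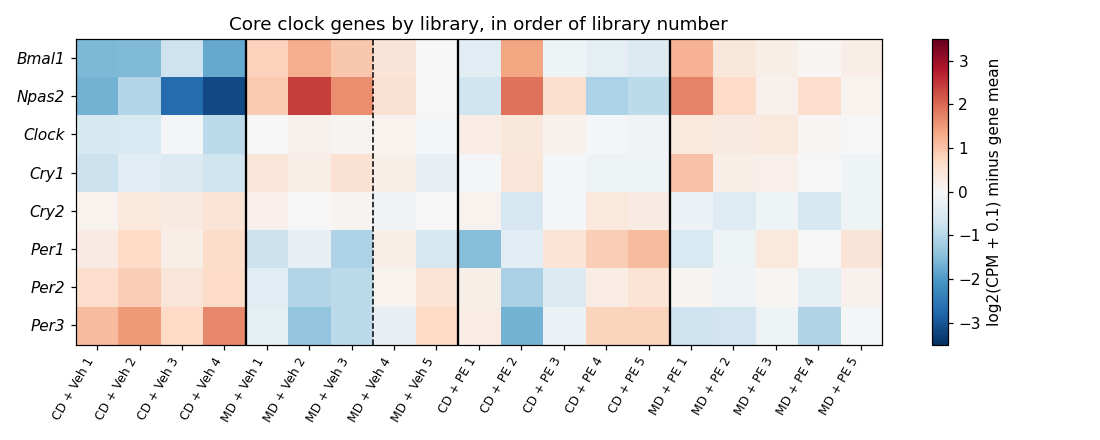
Log2 level of the 8 genes in each of the 19 livers, as log2(CPM + 0.1), after subtraction of the mean of each gene over all livers, with red above and blue below that mean. The dashed line marks the division between library numbers 45 and 46, and the CD + Veh livers are low in Bmal1, Npas2 and Cry1 and high in Per2 and Per3.

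The genes also varied together between mice of the same group. After the mean of each group was subtracted from log2 CPM, Pearson's r over the 19 livers was past an adjusted p of 0.05 in 13 of the 28 pairs of genes, 7 positive and 6 negative, and in 14 by Spearman's rho. These are permutation tests with 100000 resamples within groups. Per2 and Per3 were the closest pair, with r = 0.93 and rho = 0.88 (permutation p = 1e-05, the smallest the resamples can give, adjusted p = 0.00028), and r = 0.82 without replicate 2 of CD + PE and replicate 5 of MD + Veh. Bmal1 and Per3 went in opposite directions, with r = -0.84 and rho = -0.77 (permutation p = 0.00046, adjusted p = 0.00429). Without replicate 2 of CD + PE and replicate 1 of MD + PE this r was -0.79, and with the division of library numbers as a further term it was -0.81.

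The size of some correlations changed without the 2 most distant livers. Bmal1 and Clock had r = 0.68 with all livers and 0.67 without them (rho = 0.63, permutation p = 0.00033, adjusted p = 0.00429). Bmal1 and Npas2 had r = 0.76 and rho = 0.83 (permutation p = 0.0024, adjusted p = 0.00736), but r = 0.52 without replicate 2 of CD + PE and replicate 1 of MD + PE (adjusted p = 0.18). Bmal1 and Cry1 had r = 0.78 and rho = 0.79 (permutation p = 0.00131, adjusted p = 0.00717) and r = 0.63 without the same livers (adjusted p = 0.123). By rank over all 19 livers, both pairs were past the limit (adjusted p = 0.00238 and 0.00252). In all, 6 pairs were past the limit without the 2 most distant livers, and 27 of 28 kept the sign of r. Per1 was in none of the 13 pairs by Pearson's r but in 1 of the 14 by rank, with Cry1 (rho = -0.54, permutation p = 0.0229, adjusted p = 0.0459; r = -0.38). Its r with Per2 was 0.29 (rho = 0.42, permutation p = 0.409, adjusted p = 0.459). Without replicates 1 and 5 of CD + PE, r was -0.59 for Per1 with Cry1 (adjusted p = 0.0862) and 0.54 for Per1 with Per2 (adjusted p = 0.171).

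**Figure D4:**
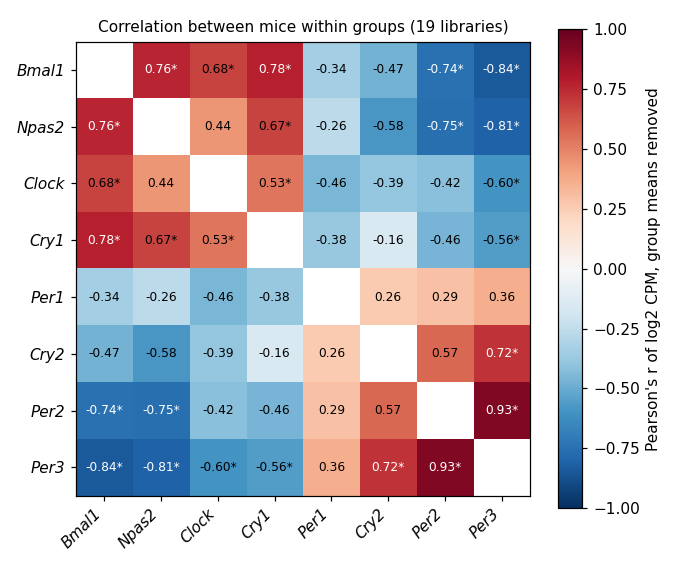
Pearson's r of each pair of the 8 genes over 19 livers, computed on log2 CPM after subtraction of group means, with the value printed in each cell and an asterisk where its adjusted p was below 0.05. Per2 with Per3 reaches 0.93 and Bmal1 with Per3 reaches -0.84, and no cell of Per1 holds an asterisk.

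The balance of the loop in single livers is given as the log2 ratio of Bmal1 to Per3 in CPM, a description without a test that was chosen after the values were seen. It was between -4.35 and -2.26 in CD + Veh (median -3.72) and between -2.10 and 2.22 in CD + PE (median -1.46), where the highest value was replicate 2. In MD + Veh it was between -1.54 and 1.86 (median 0.30) and in MD + PE between -0.55 and 1.14 (median 0.26). No liver of another group fell within the CD + Veh range.

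The genes whose levels followed each member most closely over the 19 livers were found among 12432 tested genes whose mean reached 1 CPM, as a description across libraries that share groups and depth. Per3 went with Tef (r = 0.96) and Dbp (r = 0.94), which encode activators that bind the D-box, and Mast3 (r = 0.90). Among the genes most opposed to Per3 were Clpx (r = -0.94) and Tor3a (r = -0.89). Bmal1 went with Itsn1 and Caprin1 (r = 0.93 each) and was most opposed to Ank (r = -0.93), Ak4 and Dbp (r = -0.92 each). Npas2 was nearest to Caprin1 and Clpx (r = 0.93 each) and Chka (r = 0.91), and Clock to Mical2 (r = 0.91), Lasp1 and Pnkd (r = 0.90 each). Per2 was nearest to Tef (r = 0.89), Azin1 and Ubr2 (r = 0.85 each), and Per1 to A930033H14Rik (r = 0.92), Epas1 (r = 0.88) and Noct (r = 0.86). For Cry1 they were Itsn1 (r = 0.88), Lgalsl and Syne1 (r = 0.86 each), and for Cry2 Cyc1 (r = 0.91), Sil1 and Rab23 (r = 0.90 each).

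Of 22 further clock genes on a list, 20 were tested, and Rorb (0 counts) and Bmal2 (115 counts in all libraries together) were not. In MD + Veh against CD + Veh, 5 of the 20 were called, against 10.4% of all genes. Nfil3, the repressor of D-box genes, was higher (0.99, adjusted p = 0.0451). The D-box activators Dbp (-1.62, adjusted p = 0.0232) and Tef (-0.87, adjusted p = 0.0292) were lower, as were the E-box repressors Ciart (-2.19, adjusted p = 0.0300) and Bhlhe40 (-1.29, adjusted p = 7.35e-05). In MD + PE against CD + Veh, 5 were called, all lower, against 8.55% of all genes called lower, namely Dbp (-1.92, adjusted p = 0.00605), Tef (-0.82, adjusted p = 0.0281), Ciart (-2.19, adjusted p = 0.0228), Bhlhe40 (-1.08, adjusted p = 2.04e-04) and Bhlhe41 (-1.15, adjusted p = 0.0458). In CD + PE 1 was called, against 2.92% of all genes, namely Bhlhe40 at -0.70 (adjusted p = 0.0302). The receptor genes Nr1d1, Nr1d2 and Rora of the loop and the 7 kinase and ubiquitin ligase genes that modify clock proteins gave 0 calls in all comparisons. That does not show them unchanged. The ligase gene Fbxw11 missed only the minimum size in MD + PE against CD + PE (0.30, adjusted p = 0.0482) and against CD + Veh (0.27, adjusted p = 0.0489). Nr1d2 was at -0.42 in CD + PE (adjusted p = 0.280) and -0.45 in MD + Veh (adjusted p = 0.147).

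Several of these calls depended on single livers. Bhlhe40 was called in all 19 fits that left out 1 library in both MD comparisons, and Dbp in all 19 in MD + PE and in 16 in MD + Veh. Tef was called in 14 of the 19 in each MD group, Ciart in 13 in MD + Veh and 16 in MD + PE, Bhlhe41 in 8 in MD + PE and Nfil3 in 5 in MD + Veh. In MD + Veh 1 of the 20 genes was called without replicate 4 of CD + Veh or replicate 2 or 3 of MD + Veh, 2 without replicate 2 of CD + Veh or replicate 1 of MD + Veh, and 3 without replicate 1 of CD + Veh. In MD + PE against CD + Veh 2 were called without replicate 4 of CD + Veh or replicate 1 or 2 of MD + PE, and 3 without replicate 4 of MD + PE or replicate 2 of CD + Veh. The Bhlhe40 call of CD + PE was lost without replicate 1, 3 or 4 of CD + Veh or replicate 1, 2 or 3 of CD + PE, where its adjusted p rose to as much as 0.126.

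Dbp and Bhlhe40 show the size of these differences in CPM. Dbp, whose promoter is a classical target of the BMAL1 dimers, was between 113 and 169 CPM in CD + Veh, 10.8 and 116 in CD + PE, 25.0 and 82.3 in MD + Veh, and 16.1 and 60.3 in MD + PE. Bhlhe40 was between 189 and 270 CPM in CD + Veh and between 116 and 157, 59.3 and 127, and 79.2 and 127 in those groups. In each of the other 3 groups both genes were below CD + Veh in all livers, except that the highest CD + PE liver of Dbp lay within its range. No further clock gene was called in MD + PE against MD + Veh (1.08% of all genes) or in MD + PE against CD + PE (4.61%). An unadjusted p below 0.05 was found for 0 of the 20 in the first, against 15.7% of all genes. In the second it was found for 3, against 21.7%. In the interaction 0 of the 20 were called by edgeR, against 0.00735% of all genes. There 2 had an unadjusted p below 0.05 (Bhlhe40 and Nfil3), against 8.77% of all genes, a share near that of the 20. DESeq2 called Bhlhe40 (0.92, adjusted p = 0.0321), against 0.576% of all genes.

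**Figure D5:**
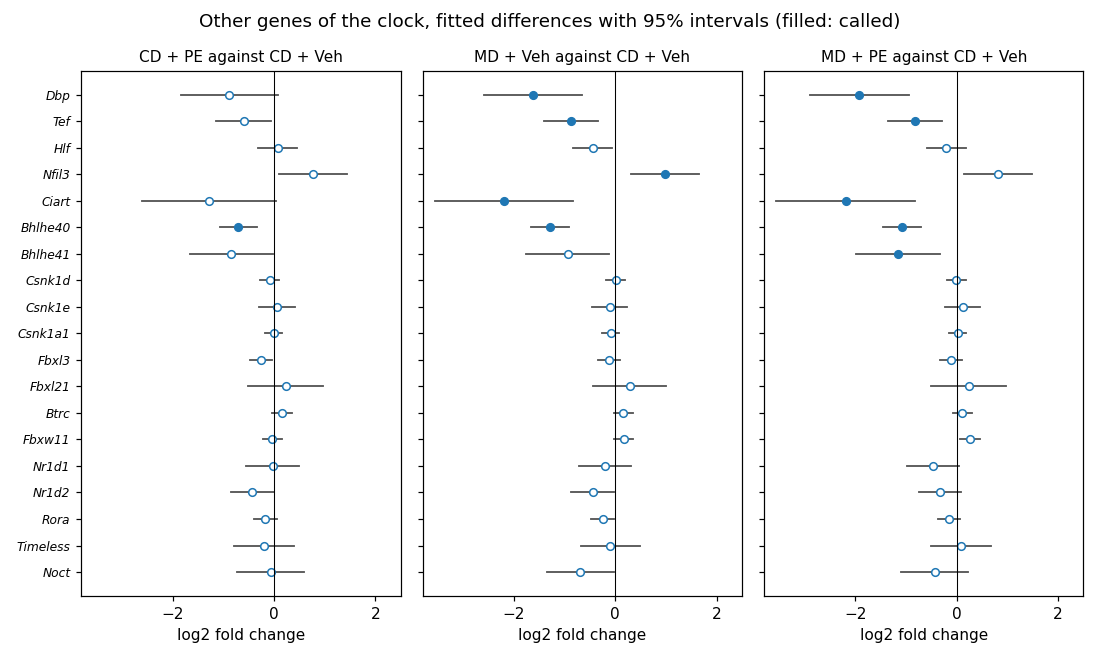
Log2 fold change of 19 of the 20 tested further clock genes against CD + Veh in CD + PE, MD + Veh and MD + PE, with 95% confidence intervals of the edgeR fit and filled symbols for called genes. Ciart and Dbp lie farthest below 0 in both MD groups, at -2.19 for Ciart in each.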

How the data were processed

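Livers of 19 mice were sequenced as stranded poly(A) libraries. The authors trimmed reads with fastp 0.23.4, estimated counts against the GENCODE transcriptome of GRCm39 with Salmon 1.10.3 and sequence bias correction, and summed transcripts to genes with tximport; they tested with DESeq2. The deposited values are estimated counts as whole numbers, not normalized or filtered, and the GENCODE release is not given in the sources used here. Groups came from titles and treatment labels, and depth and CPM per count are given with the results.

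Counts were fitted in R 4.3.3 with edgeR 4.0.16 (TMM, filterByExpr by group, quasi-likelihood F test, 1 coefficient per group, all 19 libraries), with Benjamini-Hochberg adjustment over 13597 genes and limits of 0.05 and, in log2, 0.38 from the study's methods. SE is the log2 fold change divided by the square root of F. Correlations used log2 CPM with a prior count of 2. The alternatives were DESeq2 1.42.0, RLE factors, no filter, a stricter filter, no minimum fold change, a block for the replicate number, a fit of just the groups compared, the division of library numbers as a covariate and each library left out. Fits within 1 side of the division, and most alternatives for the further clock genes, were chosen after seeing the data. The members, the list of 22 further clock genes and the tests were chosen with earlier results of these data known. Named genes are the members, the 3 genes most like each (for Bmal1 and Per3 also the 3 most opposed) and further clock genes called in any comparison; 2 genes that these lists hold are not reported here. The fits were also run on simulated data in which every gene had the same spread beyond counting noise. That run does not show how they perform for genes that vary as much as Npas2 did in CD + PE. Over 36 pairs of libraries of 1 group, at most 1.85% of genes had identical counts, so none was a copy. Over 27 pairs of libraries with 1 replicate number, residuals of all genes tested correlated with a median of 0.0293 (-0.245 to 0.410, 6 above 0.1). The design states no pairing, and the replicates were treated as unpaired. These residuals cover all genes, so they cannot show whether the clock genes alone went with the replicate number. P-values of the fits set each group difference against the spread between mice within groups, and the number of livers limits their precision.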

Additional observations from a re-analysis of the deposited data

Results flagged for a closer look

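Of 32 combinations of a core clock gene and a group, 6 had 1 liver so far from the rest that its gap to the nearest other liver, as a share of the group's range, passed the 95% limit of Dixon's test. Chance gives about 1 such liver in 20 groups if values are normally distributed and groups independent. Values in CPM need not be normal, and these genes varied together, so that rate is a rough guide. In replicate 2 of CD + PE, Bmal1 was at 20.9 CPM with the next liver at 7.15, and Cry1 was at 13.7 CPM with the next at 9.63. In replicate 1 of MD + PE, Bmal1 was at 18.8 CPM (next 10.6), Npas2 at 4.88 CPM (next 2.27) and Cry1 at 20.7 CPM (next 11.9). In replicate 3 of CD + Veh, Bmal1 was at 4.76 CPM with the next liver at 2.65. All 6 are high values, and 5 of them come from 2 livers.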

How the results depend on the processing

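Of 391 values recomputed under settings other than leaving out 1 library, 367 kept their direction and side of the limit, and the cause of the others was not tested unless stated. The number of the 8 genes called in CD + PE against CD + Veh was 2. With only the groups compared, a fit of fewer livers, 0 of the 7 genes tested were called (Bmal1 adjusted p = 0.0760, Clock 0.0648), against 289 of 12772 genes. Npas2 did not pass the filter in that fit. With the division as a covariate 0 of the 8 were called, and over the fits without 1 library 0 to 3. DESeq2 called 1 of the 8 (Bmal1) and 1 further clock gene (Bhlhe40) in the interaction, against 0 by edgeR. In MD + PE against CD + PE the count ranged from 0 to 1 without 1 library, and in MD + Veh against CD + Veh from 5 to 6. Over all genes, 397 were called in CD + PE against CD + Veh and 37 with the division as a covariate, and 1982 in MD + PE against CD + Veh and 930 with it. In MD + PE against MD + Veh, 147 were called, with 292 by DESeq2, 73 with only the groups compared, 33 with the division and 18 within library numbers 46 to 57. In the interaction 1 was called, with 78 by DESeq2, 54 with the division and 41 with the replicate block. The number of the 20 further clock genes called, recomputed under added settings chosen after seeing the data, ranged without 1 library from 1 to 7 in MD + Veh against CD + Veh (5 with all), 2 to 6 in MD + PE against CD + Veh (5), 0 to 1 in CD + PE (1) and 0 to 1 in MD + PE against CD + PE (0). With the division it was 3 in MD + PE against CD + Veh and 0 in CD + PE, with the replicate block 3 in CD + PE and 1 in the interaction, and with no minimum fold change 1 in MD + PE against CD + PE. Nfil3 was called in MD + Veh by edgeR with all libraries, but no further clock gene was called higher there with no filter, only the groups compared or the division. Correlated pairs fell from 13 to 6 without the 2 most distant livers. Per2 in MD + Veh was not called without a filter (adjusted p = 0.0589) or with only the groups compared (0.0556). With only the groups compared, Per1 in MD + Veh (adjusted p = 0.0222) and Per2 in MD + PE against CD + Veh (0.00182) were called. Without a filter these 2 were not (adjusted p = 0.128 and 0.143).

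In MD + PE against MD + Veh the sign turned with the division as a covariate for Bmal1 (0.25), Npas2 (0.52) and Per2 (-0.34), and within library numbers 46 to 57 for Bmal1 (0.26), Npas2 (0.53) and Per2 (-0.33). Leaving out 1 library turned signs near 0. The ranges were -0.18 to 0.16 for Per2 and -0.0534 to 1.21 for Npas2 in MD + PE against CD + PE, -0.42 to 0.17 for Per3 and -0.18 to 0.17 for Cry1 in MD + PE against MD + Veh, -0.37 to 0.14 for Per1 in CD + PE, and -0.19 to 0.0139 for Cry2 in the interaction.

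The replicate numbers were not shown to pair the livers, and the design states no pairing. Of 19 livers, 4 correlated best with their own number, and the share that chance would give was not computed. With the replicate number as a block, 4 of the 8 genes were called in CD + PE, against 419 of 13597 genes. Npas2 (2.73, adjusted p = 0.0154) and Per3 (-1.38, adjusted p = 0.0263) were added. The block also added Per1 in MD + Veh (-1.04, adjusted p = 0.0332), where 1448 of 13597 genes were called. It added Per2 in MD + PE against CD + Veh (-0.79, adjusted p = 0.0268), where 1974 were.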
